A study of Homo sapiens with 20 samples.

Results

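The 7 genes described here encode replication-type histones whose transcripts gave a signal on 3' expression arrays: H2AC6, which encodes histone H2A, H2BC12, H2BC9, H2BC5 and H2BC21, which encode H2B, H3C2, which encodes H3, and H1-2, which encodes a linker histone. They were chosen by name, through probe sets annotated to their current or older symbols, out of 19775 genes with a probe set carrying a single gene symbol. The annotation gave them 8 such probe sets, with 2 for H2BC5 and 1 for each other gene, and all 8 lay above the signal filter. The choice was made with earlier results of these data known, so counts of the 7 beside shares of all genes are descriptive only. The arrays measured RNA of U2OS, an established human osteosarcoma cell line, in 5 conditions with 4 arrays each. The conditions were emetine at 100 ug/ml for 3 hr, tunicamycin at 2.5 ug/ml for 3 hr, hypoxia below 0.1% oxygen for 3 hr, depletion of UPF1 by a hairpin named shRent1, and control cells. In every condition DRB was then added at 100 ug/ml and RNA was taken at its addition and 1.5, 3 and 4.5 hr later, with 1 array per condition and time. All groups therefore share the cell line and the DRB course, and no time has a replicate. No control hairpin is named in the labels for the shRent1 cells. Separate cultures are not stated either, so p-values measure only the scatter between these arrays, and a batch of cultures or arrays cannot be told apart from a condition.

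Most mRNAs of replication-type histones end in a conserved stem-loop in place of a poly(A) tail, and the stem-loop binding protein SLBP carries them through processing and translation. When DNA synthesis stops, they are degraded by a route that involves UPF1 and SLBP, and blocking translation is known to hold this decay back. Some of the same genes also give transcripts with a poly(A) tail, which 3' labelling kits prime from, and the arrays do not measure the tail itself. Emetine stops translation elongation, tunicamycin blocks N-linked glycosylation and so stresses the endoplasmic reticulum, and DRB stops elongation by RNA polymerase II.

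The promoters of 5 of the genes are shown because these genes mark the contrast in the data: H2AC6, H2BC12 and H2BC9 were higher in emetine and in shRent1, H2BC21 passed in neither, and H1-2 rose after DRB in every condition. Each sequence is the 170 bases before the annotated gene start, from RefSeq (GRCh38.p14), written 5' to 3' on the gene's strand. Capitals mark a match, on either strand, to the octamer ATTTGCAT, to TATAAA, to CCAAT or to AAACACA, a letter string of H1 promoters.
H2AC6, chr6:26124002-26124171, plus strand: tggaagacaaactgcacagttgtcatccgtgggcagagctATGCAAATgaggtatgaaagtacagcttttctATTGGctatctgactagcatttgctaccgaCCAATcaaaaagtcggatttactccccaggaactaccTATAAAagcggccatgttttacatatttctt
H2BC12, chr6:27146859-27147028, minus strand: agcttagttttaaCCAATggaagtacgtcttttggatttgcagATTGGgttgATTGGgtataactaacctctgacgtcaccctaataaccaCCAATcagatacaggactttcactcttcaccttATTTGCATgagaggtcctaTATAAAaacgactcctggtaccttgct
H2BC9, chr6:26251444-26251613, plus strand: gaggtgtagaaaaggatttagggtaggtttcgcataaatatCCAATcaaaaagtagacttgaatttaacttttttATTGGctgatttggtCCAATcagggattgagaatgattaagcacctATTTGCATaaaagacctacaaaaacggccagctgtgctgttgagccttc
H2BC21, chr1:149886683-149886852, minus strand: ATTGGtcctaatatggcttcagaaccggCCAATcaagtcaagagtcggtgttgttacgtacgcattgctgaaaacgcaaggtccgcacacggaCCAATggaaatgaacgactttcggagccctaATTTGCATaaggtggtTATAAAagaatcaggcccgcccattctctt
H1-2, chr6:26056471-26056640, minus strand: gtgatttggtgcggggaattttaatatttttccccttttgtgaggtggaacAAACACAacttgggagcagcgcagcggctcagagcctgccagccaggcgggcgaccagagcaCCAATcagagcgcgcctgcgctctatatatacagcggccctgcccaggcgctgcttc
The octamer stood in 4 of the 7 promoters, those of H2AC6, H2BC9, H2BC12 and H2BC21, and in 1.1% of 27305 RefSeq promoter windows of the same length. TATAAA stood in 5 of 7, all but H2BC9 and H1-2, against 7.77% of windows, and CCAAT in 7 of 7, against 26.1%. AAACACA stood in that of H1-2 and no other of the 7, against 3.22% of windows. These matches describe the letters only. The octamer was in the promoters of H2AC6, H2BC9 and H2BC12, higher in emetine, and of H2BC21, which did not pass the test. It was absent from those of H3C2 and H1-2, which were also higher in emetine, and from that of H2BC5. All 7 genes lie on chromosome 6 except H2BC21, which lies on chromosome 1.

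The deposited values are linear intensities from RMA, with array medians from 37.3 to 40.4. RMA scales arrays to each other, so each value is relative to the other transcripts on its array. UPF1 averaged 111.5 ± 38.7 in shRent1 cells and 369.0 ± 19 in control cells (SD, n = 4 arrays each). Of 10 mesenchymal and osteosarcoma markers 9 lay above the filter, as did 4 of 6 epithelial, 5 of 5 neural, 2 of 5 blood cell and 2 of 4 endothelial markers. VIM (mean log2 13.94) and COL1A1 (12.62) were bright and COL1A2 (4.41) lay below the filter. The epithelial keratins KRT18 (12.94) and KRT8 (11.66) were bright too. EPCAM (8.11) and CLDN4 (5.70) also lay above the filter, and CDH1 (4.69) and KRT19 (4.46) below it. The neural markers ran from GFAP (5.50) to SNAP25 (6.97). Of the blood cell markers, HBB (6.59) and CD3E (4.90) lay above the filter, and CD14 (4.61), LYZ (3.40) and PTPRC (3.33) below it. Of the endothelial markers, PECAM1 (6.25) and VWF (5.26) lay above it, and CDH5 (3.76) and KDR (3.44) below. The log2 ratio of the 3' to the 5' probe set of ACTB, a measure of RNA ends, was 2.04 ± 0.19 in emetine and 2.04 ± 0.13 in hypoxia. It was 1.24 ± 0.06 in shRent1, 0.54 ± 0.11 in tunicamycin and 0.55 ± 0.10 in control (SD, n = 4 arrays each). The same ratio of GAPDH differed far less, at 0.11 ± 0.03 in emetine and 0.15 ± 0.04 in hypoxia. For GAPDH it was 0.07 ± 0.02 in shRent1, 0.00 ± 0.04 in tunicamycin and 0.04 ± 0.04 in control. H2BC12 was the brightest of the 7, at percentile 96.9 of all probe sets by mean log2, followed by H1-2 at 93.8, and H3C2 was the dimmest at 42.5. Only the probe sets of H2BC12 and H1-2 are of the type designed for a single transcript. The other 6 probe sets end in _s_at or _x_at, which may detect several transcripts, and histone genes of a class are close copies of each other.

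**Figure D1:**
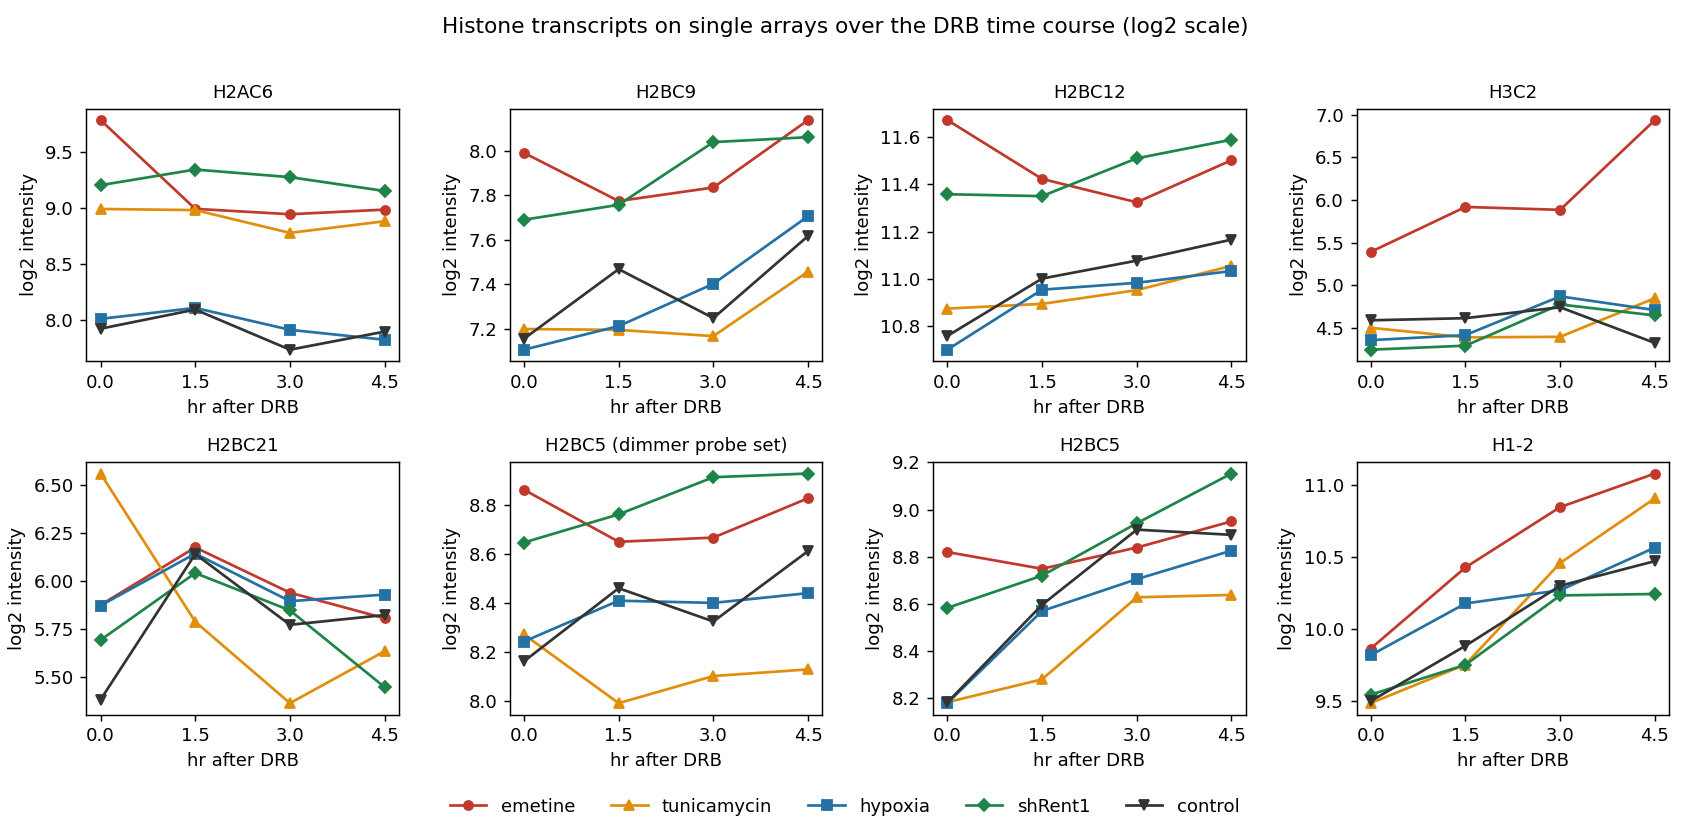
Intensity of each probe set (vertical log axis, RMA units) against hr after DRB, with a line for each of the 5 conditions and 1 array per point. H2AC6 separates shRent1, emetine and tunicamycin from hypoxia and control, H3C2 separates emetine from the rest, and H1-2 climbs in all 5 conditions.

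The first comparison asks how the translation block changed these transcripts, taken as the mean log2 difference from control over the 4 DRB times. In emetine, 5 of the 7 were higher and 0 lower (limma, adjusted p under 0.05), with estimates from 1.39-fold for H2BC12 to 2.77-fold for H3C2. Of all 14478 genes tested, 28.4% were higher and 35.4% lower in the same comparison. The median difference was 0.52 on the log2 scale over the 7 genes and -0.10 over all genes. H3C2 passed the signal filter only through its emetine arrays, since its mean log2 in the other conditions was 4.54 against a filter value of 4.70, so its test was bound to show a difference. Without it 4 of 6 were higher, with a median of 0.50. The ACTB end ratio was 2.04 in emetine, 2.04 in hypoxia and 1.24 in shRent1, against 0.55 in control. That of GAPDH was 0.11, 0.15 and 0.07, against 0.04 in control. The part of RNA ends in the values of the 7 genes was not tested.

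H2AC6 encodes a core histone of the H2A class. Its intensity in emetine was 882.7 at 0 hr and 509.0, 492.3 and 506.5 at the later times, against 241.9, 272.3, 212.3 and 237.5 in control. Every emetine array lay above every control array, and the emetine array at 0 hr stood far above the later 3. The mean log2 difference was 1.27 ± 0.13 (SE), or 2.41-fold (limma adjusted p = 4.56e-07). At 0 hr the measured ratio was 3.65-fold, and the model of level and slope put it at 2.97-fold (log2 1.57 ± 0.19, adjusted p = 4.58e-05). Without the emetine array at 0 hr the fitted level was 0.90 on the log2 scale and still passed.

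H2BC12 encodes an H2B and is the brightest of the group, with a probe set for a single transcript. It read 3262.0, 2746.3, 2563.0 and 2900.9 in emetine at the 4 times, against 1731.5, 2048.8, 2160.7 and 2298.5 in control. The ranges did not overlap, and the gap was widest at 0 hr, where the ratio was 1.88-fold, and 1.26-fold at 4.5 hr. The mean log2 difference was 0.48 ± 0.09 (SE), 1.39-fold (limma adjusted p = 0.000212), and the fitted level at DRB addition was 0.77 ± 0.12 (adjusted p = 0.00028). Without the emetine array at 0 hr that level was 0.50 with an adjusted p of 0.0557.

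H2BC9, another H2B gene, followed a like course at a lower signal, with a Pearson's r of 0.93 to H2BC12 over the 20 arrays. Its only probe set ends in _x_at, so signal from H2BC12 or another H2B transcript cannot be told apart from that of H2BC9. Its emetine arrays read 254.4, 218.8, 228.3 and 281.6, against 142.5, 177.0, 152.0 and 196.2 in control. The ranges did not overlap, and the mean log2 difference was 0.56 ± 0.09 (SE), 1.48-fold (limma adjusted p = 5.42e-05). The fitted level at DRB addition was 0.66 ± 0.14 (adjusted p = 0.00246), and 0.42 and 0.40 without the control or the emetine array at 0 hr, where it did not pass (highest adjusted p = 0.199).

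H2BC5, also an H2B gene, has 2 probe sets that gave different calls. The brighter read 451.8, 430.1, 457.8 and 494.7 in emetine, against 290.5, 387.0, 482.6 and 475.3 in control. Emetine was higher at 0, 1.5 and 4.5 hr and lower at 3 hr, the ranges overlapped, and the mean difference of 0.19 ± 0.09 (SE) did not pass (limma adjusted p = 0.0721). With the median of the 2 probe sets the mean difference passed (0.28, limma adjusted p = 0.00843). That of the brighter one passed when ribosomal protein genes set the array scale (0.21, adjusted p = 0.0487), or without the control array at 3 hr (0.25) or the emetine array at 3 or 4.5 hr (0.25 and 0.24). The dimmer read 465.7, 401.8, 406.4 and 454.4 in emetine, against 286.1, 352.0, 320.4 and 391.2 in control. Here the ranges did not overlap, and the mean difference was 0.36 ± 0.09 with every probe set tested as a feature (adjusted p = 0.00329). At DRB addition the brighter probe set passed, with a fitted level of 0.49 ± 0.12 (adjusted p = 0.0074), which was lost without the control array at 0 hr (0.26, adjusted p = 0.363) or the emetine array at 0 hr (0.28, adjusted p = 0.322). The brighter probe set stands for H2BC5 elsewhere in the text.

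H2BC21 was the H2B gene with no call. It read 58.6, 72.2, 61.3 and 55.9 in emetine, against 41.7, 70.5, 54.6 and 56.6 in control. The arrays overlapped, with the lowest of them being control at 0 hr. The mean difference was 0.17 ± 0.19 (SE), with a 95% interval from -0.23 to 0.57 (limma adjusted p = 0.446), so a rise of the size seen for H2BC12 or H2BC9 lies inside the interval. Without the control array at 0 hr the estimate was -0.00.

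H3C2, the H3 gene of the group, was near the floor of the arrays outside emetine. It read 41.9, 60.5, 59.1 and 122.6 in emetine, against 24.0, 24.5, 26.7 and 20 in control. Every emetine array was higher than every other array in the study, and the array at 4.5 hr was the highest. The mean log2 difference was 1.47 ± 0.20 (SE), 2.77-fold, and since control lay around the filter intensity of 26 its size is uncertain. The fitted level at DRB addition was 0.68 ± 0.24 (limma adjusted p = 0.0445), and it did not pass without the control or the emetine array at 0 or 1.5 hr (0.39 to 0.71, highest adjusted p = 0.53), nor with no signal filter (adjusted p = 0.0536) or with every probe set tested (0.0518).

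H1-2 encodes a linker histone, which binds DNA between nucleosomes. It read 933.7, 1379.8, 1845.1 and 2167.3 in emetine, against 725.0, 945.9, 1263.7 and 1422.3 in control. The ranges overlapped, both conditions rose with time, and emetine was higher at each of the 4 times. The mean log2 difference with time as a block was 0.52 ± 0.11 (SE), 1.43-fold (limma adjusted p = 0.000857), and with no time block the same difference had an adjusted p of 0.169. The fitted level at DRB addition was 0.41 ± 0.13 (adjusted p = 0.0229), and did not pass without the control array at 0 hr (0.35) or the emetine array at 0, 1.5 or 4.5 hr (0.59, 0.35 and 0.37; highest adjusted p = 0.28 over these).

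At DRB addition, 6 of the 7 fitted levels were higher in emetine, all but H2BC21, against 18.9% of all genes higher and 19.8% lower. Without H3C2 the count was 5 of 6. The count over all 7 fell to 1 without the emetine array at 0 hr, when the level is extrapolated from later times. Without the control array at 0 hr, H2BC9, H3C2, H2BC5 and H1-2 lost the call (limma adjusted p from 0.193 to 0.53).

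**Figure D2:**
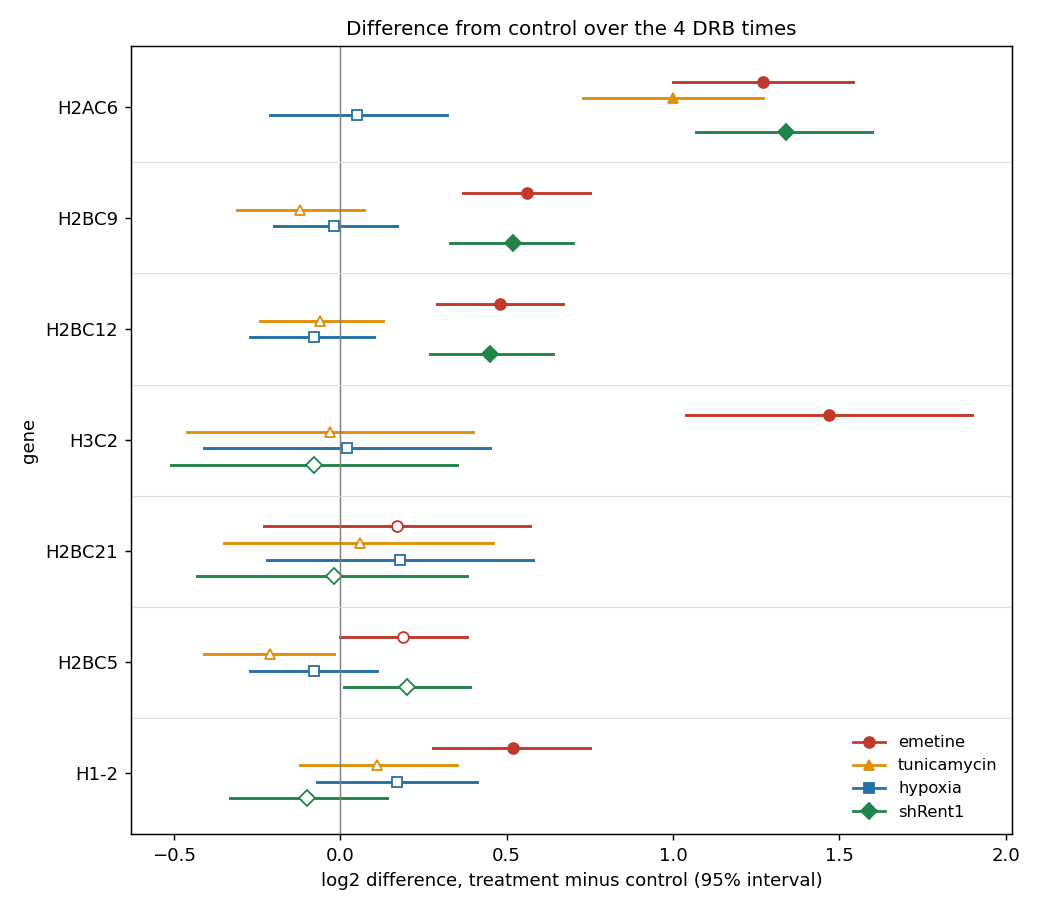
Mean log2 difference from control over the 4 DRB times (horizontal axis, with 95% intervals from limma) for the 7 genes in emetine, tunicamycin, hypoxia and shRent1. H2AC6 lies at 1.27, 1.0, 0.05 and 1.34 in these conditions, and H3C2 lies at 1.47 in emetine and between -0.08 and 0.02 in the others.

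Fewer of the 7 genes were called in the other treatments than in emetine, as were fewer of all genes. Each treatment is set against the same control arrays. In tunicamycin and hypoxia the counts given below were near the shares of all genes. In shRent1, 3 were higher and 0 lower, against 17.7% of all genes higher and 13.7% lower. These were H2AC6, H2BC9 and H2BC12. H2AC6 read 589.3, 649.6, 619.3 and 568.5 in shRent1, against 241.9, 272.3, 212.3 and 237.5 in control. All 4 shRent1 arrays were well above the control range, with a difference of 1.34 ± 0.13 (SE), 2.52-fold (limma adjusted p = 1.81e-06). H2BC9 read 206.5, 216.4, 263.0 and 267.1 in shRent1, and all 4 values exceeded the control maximum of 196.2 (difference 0.52 ± 0.09, adjusted p = 0.00045). H2BC12 read 2625.0, 2610.9, 2916.9 and 3081.6 in shRent1, again above the highest control array (difference 0.45 ± 0.09, adjusted p = 0.00116). H2BC5 had 0.20 ± 0.09 on its brighter probe set (adjusted p = 0.0984) and 0.42 on its dimmer one (adjusted p = 0.00313). H3C2 (-0.08 ± 0.20), H2BC21 (-0.02 ± 0.19) and H1-2 (-0.10 ± 0.11) did not pass. At DRB addition the same 3 genes passed in shRent1, against 9.68% of all genes higher and 3.99% lower, and none of them did once the 0 hr control array was left out (adjusted p up to 0.662). H2BC9 lost this call in 9 of 16 alternatives: with quantile normalization (0.37, adjusted p = 0.078), no filter (0.0553), every probe set tested (0.056) or a line per condition (0.0631), and with any of 5 arrays left out, those of control at 0 and 4.5 hr and of shRent1 at 0, 1.5 and 4.5 hr. H2BC12 also lost it without the shRent1 array at 0 hr (0.44, adjusted p = 0.287).

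In tunicamycin H2AC6 alone was higher of the 7, with 0 lower, against 11% of all genes higher and 11.5% lower. It read 508.6, 504.9, 438.4 and 471.1 in tunicamycin, against 241.9, 272.3, 212.3 and 237.5 in control, so the ranges did not overlap. The difference was 1.0 ± 0.13 (SE; limma adjusted p = 9.11e-05). Its fitted level at DRB addition also passed (1.01 ± 0.19, adjusted p = 0.0143), where 1.97% of all genes were higher and 0.926% lower, but not without the control or the tunicamycin array at 0 hr (highest adjusted p = 0.342). The lowest estimate was that of H2BC5, -0.21 ± 0.09 (adjusted p = 0.102).

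In hypoxia 0 of the 7 passed in either direction, against 9.99% of all genes higher and 9.93% lower, and 0 had an unadjusted p under 0.05. Estimates ran from -0.08 for H2BC12 and H2BC5 to 0.18 for H2BC21. H2AC6 read 257.0, 275.2, 240.3 and 225.9 in hypoxia, against 241.9, 272.3, 212.3 and 237.5 in control. Those ranges overlapped, and the 95% interval of its difference, -0.21 to 0.32, lay below the estimates of the other 3 treatments. At DRB addition 0 passed as well, against 3.21% of all genes higher and 4.44% lower, and 1, H1-2, had an unadjusted p under 0.05 (0.32 on the log2 scale, adjusted p = 0.15).

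The order of conditions by mean log2 level differed between the genes. H2AC6 ran shRent1 (9.24), emetine (9.18), tunicamycin (8.91), hypoxia (7.96) and control (7.91), and the arrays overlapped between neighbours except between tunicamycin and hypoxia. For H2BC9 and H2BC12, emetine (7.93 and 11.48) and shRent1 (7.89 and 11.45) overlapped each other and stood apart from control and tunicamycin. They also stood apart from hypoxia for H2BC12, while for H2BC9 the highest hypoxia array (208.8) exceeded the lowest shRent1 array (206.5). For H3C2, emetine (6.03) stood apart from hypoxia (4.59), control (4.56), tunicamycin (4.53) and shRent1 (4.49), which overlapped. For H2BC21, H1-2 and the brighter H2BC5 probe set, all neighbours overlapped. The dimmer H2BC5 probe set ran shRent1 (8.81), emetine (8.75), control (8.39), hypoxia (8.37) and tunicamycin (8.12), with a gap between emetine and control.

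Whether emetine differed from the other treatments was tested directly, with all of them in the same model. Emetine was higher than hypoxia for 6 of the 7 genes, all but H2BC21, against 27.3% of all genes higher and 31.3% lower. The call of H2BC5 (0.27 ± 0.09) was lost with quantile normalization (0.12, adjusted p = 0.33) and without the hypoxia or the emetine array at 0 hr, and that of H1-2 (0.35 ± 0.11) without the hypoxia array at 3 or 4.5 hr (adjusted p from 0.0522 to 0.0787 without these arrays). Emetine was higher than tunicamycin for 5, against 26.3% of all genes higher and 29.4% lower. The exceptions were H2BC21 (0.11 ± 0.19) and H2AC6, whose difference of 0.27 ± 0.13 (SE) did not pass (limma adjusted p = 0.0792). Against shRent1, emetine was higher for 2 genes, where 24.6% of all genes were higher and 28.7% lower. They were H3C2 (1.55 ± 0.20, adjusted p = 9.3e-06) and H1-2 (0.61 ± 0.11, adjusted p = 0.000222). The other 5 estimates lay between -0.07 and 0.19. For H2AC6, H2BC9 and H2BC12 the 95% intervals of emetine minus shRent1 were -0.33 to 0.20, -0.14 to 0.24 and -0.16 to 0.21. Leaving out H3C2, whose inclusion rests on emetine, the counts were 5, 4 and 1 of 6.

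DRB blocks new transcripts, so the slope over the 4 times shows a change in relation to the other transcripts on the array, not a half-life. H1-2 rose in all 5 conditions. Its slope was 0.27 ± 0.03 log2 per hr in emetine, 0.33 ± 0.03 in tunicamycin, 0.16 ± 0.03 in hypoxia, 0.17 ± 0.03 in shRent1 and 0.22 ± 0.03 in control (SE; limma adjusted p from 2.56e-05 to 0.00412). In tunicamycin H1-2 read 718.1, 864.4, 1409.8 and 1923.7, in hypoxia 904.5, 1160.4, 1236.2 and 1517.6, and in shRent1 748.0, 863.4, 1206.4 and 1214.2. Each array was thus higher than the one before it in every condition. Without the array at 0 hr H1-2 did not pass in emetine (0.22, adjusted p = 0.453), hypoxia (0.13, adjusted p = 0.177) or shRent1 (0.16, adjusted p = 0.0956), nor without that at 4.5 hr in emetine (0.33, adjusted p = 0.0523) or hypoxia (0.15, adjusted p = 0.105).

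**Figure D3:**
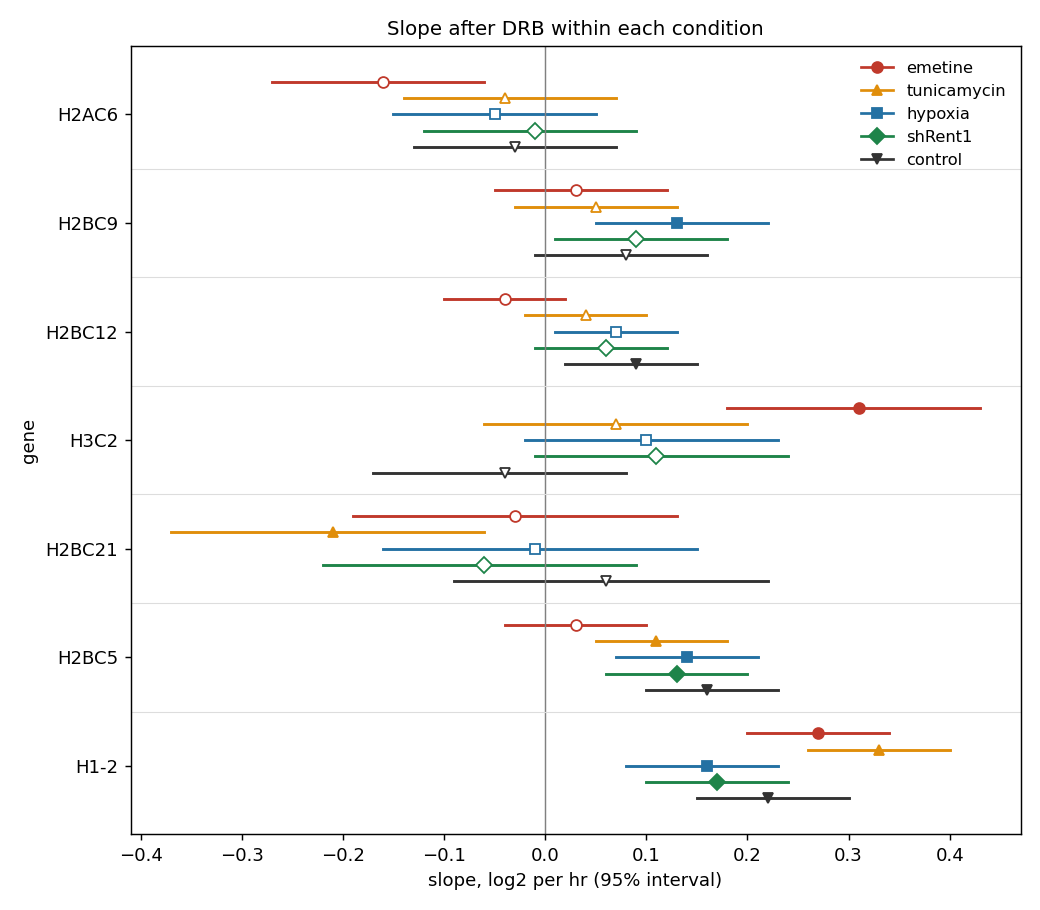
Slope after DRB in log2 per hr (horizontal axis, with 95% intervals) for each gene in each of the 5 conditions, with filled markers where the slope passed the test. H1-2 is filled in all 5 conditions, and H3C2 is filled in emetine, at 0.31.

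H2BC5 rose in 4 conditions on its brighter probe set, with slopes of 0.11 ± 0.03 log2 per hr in tunicamycin, 0.14 ± 0.03 in hypoxia, 0.13 ± 0.03 in shRent1 and 0.16 ± 0.03 in control (SE; limma adjusted p from 0.00163 to 0.0206). In emetine it had 0.03 ± 0.03 and did not pass, and its dimmer probe set passed in no condition. The call in tunicamycin was lost when ribosomal protein genes set the array scale (0.08, adjusted p = 0.084). Each of the 4 calls was lost without that condition's array at 0 hr (adjusted p from 0.116 to 0.328). H2BC9 rose in hypoxia (0.13 ± 0.04, adjusted p = 0.02), though not without the array at 0 hr (adjusted p = 0.128) or 4.5 hr (0.333), and H2BC12 in control (0.09 ± 0.03, adjusted p = 0.035), a call lost when ribosomal protein genes set the array scale (0.07, adjusted p = 0.0945) and without the control array at 0 hr (0.06, adjusted p = 0.506), 3 hr (0.0503) or 4.5 hr (0.135). H2BC21 fell in tunicamycin, at -0.21 ± 0.07 (adjusted p = 0.0491). There it read 94.2, 55.2, 41.2 and 49.7, and without the high array at 0 hr its slope was -0.05 (adjusted p = 0.885). H3C2 rose in emetine, at 0.31 ± 0.06 (adjusted p = 0.0394), though not when ribosomal protein genes set the scale (adjusted p = 0.0526) or with quantile normalization (0.0551), and without the emetine array at 4.5 hr it had 0.16 (adjusted p = 0.682). H2AC6 passed in none, with -0.16 ± 0.05 in emetine (adjusted p = 0.213). Its emetine signal fell by 0.79 on the log2 scale between 0 and 1.5 hr and moved by -0.01 between 1.5 and 4.5 hr.

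By condition, 2 of the 7 rose in emetine, where 0.0691% of all genes rose and 0.325% fell, and 1 of 6 without H3C2. In tunicamycin 2 rose and 1 fell, against 11% and 11.4% of all genes. In hypoxia 3 rose, against 15.3% rising and 14.2% falling, in shRent1 2, against 11% and 16.5%, and in control 3, against 14.2% and 17.5%. Without the array at 0 hr of the condition, the count of rising genes was 0 in emetine, hypoxia and shRent1, and 1 in tunicamycin and control. It was also 0 in emetine and 1 in tunicamycin without the array at 4.5 hr.

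Set against control, H3C2 was the only one of the 7 whose slope difference passed in any treatment. In tunicamycin 4.66% of all genes had a higher slope than in control and 0.58% a lower one, in hypoxia 0.0345% and 0%, and in shRent1 0.0345% and 0.00691%. Without H3C2, which was tested only because its emetine arrays are high, 0 of 6 slope differences passed in emetine. Its control arrays, from 20 to 26.7, lay around the filter intensity, so the size of its slope difference is uncertain. The difference of H3C2 was 0.35 ± 0.09 log2 per hr in emetine (SE; limma adjusted p = 0.0157), where 12.8% of all genes had a higher slope and 1.58% a lower one. Without the emetine or the control array at 4.5 hr it was 0.18 (adjusted p = 0.393) and 0.23 (adjusted p = 0.28), and without those at 0 hr 0.38 (adjusted p = 0.103) and 0.43 (adjusted p = 0.0549). H2BC12 (-0.13, adjusted p = 0.0638), H2BC5 (-0.13, adjusted p = 0.0667) and H2AC6 (-0.13, adjusted p = 0.236) had lower slope estimates in emetine, and their differences from control were largest at 0 hr. H2BC12 passed with quantile normalization (adjusted p = 0.0491), with the stricter signal filter (0.0438) and with trended robust moderation (0.0132), and H2BC5 with the first of these (0.033) and the second (0.0465).

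The genes around these histones were read from lists of the same pathway, also chosen with earlier results of these data known. Of 61 other replication-type histone genes, 34 had a probe set of their own and 16 were above the filter. In emetine 7 of these were higher and 1 lower over the 4 times, where 28.4% of all genes were higher and 35.4% lower, and the median log2 difference was 0.13, against -0.10 for all genes. The linker histone genes H1-1 (1.70 ± 0.12, SE; limma adjusted p = 1.41e-08) and H1-4 (0.74 ± 0.10, adjusted p = 1.87e-05) and the H2B gene H2BC6 (0.57 ± 0.09, adjusted p = 5.59e-05) had the largest statistics. H2AC25 was the lower one (-0.41 ± 0.12, adjusted p = 0.00666) and was named after its value was seen. Of 9 replication-independent variants tested, whose mRNAs mostly carry poly(A) tails, 3 were higher and 3 lower, shares near those of all genes, with a median of 0.12. H1-10, a linker histone variant, was higher (0.96 ± 0.11), as was H2AX, the H2A variant phosphorylated at DNA breaks (0.58 ± 0.09). H2AZ2, an H2A.Z variant, was lower (-0.28 ± 0.05, adjusted p = 0.000325).

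**Figure D4:**
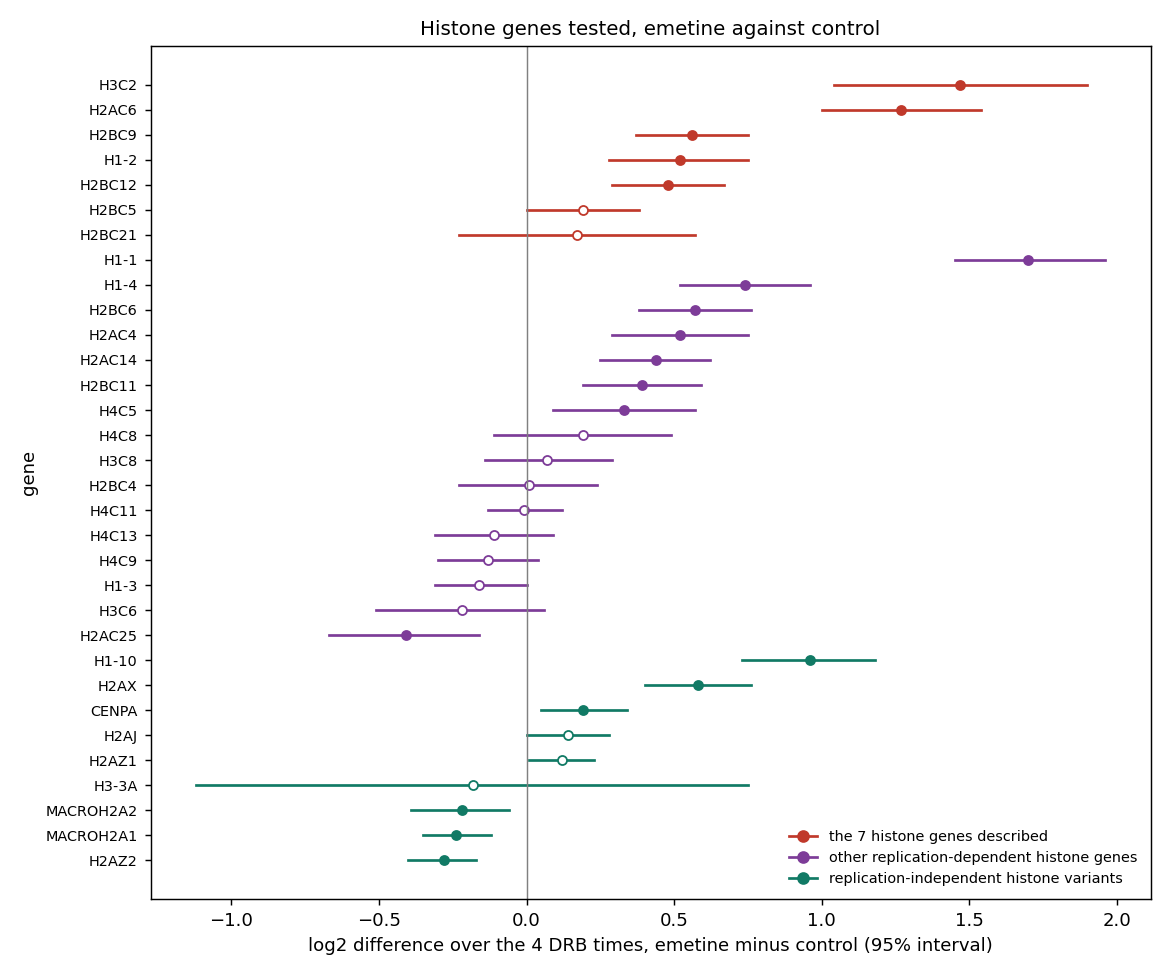
Mean log2 difference of emetine from control over the 4 DRB times (with 95% intervals, filled where the test passed) for the 7 histone genes described, the other replication-type histone genes tested and the replication-independent variants tested. H1-1 reaches 1.70 and H1-10 reaches 0.96, while H2AC25 lies at -0.41 and H2AZ2 at -0.28.

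The list of histone mRNA processing and decay also held regulators of histone gene transcription, such as HINFP. Of its 43 genes tested, 25 were higher and 9 lower in emetine over the 4 DRB times. Of all genes 28.4% were higher and 35.4% lower, and the median log2 difference of the list was 0.31. At DRB addition 14 of the list were higher and 8 lower, with a median of 0.08, against 18.9% and 19.8% of all genes. The slope in emetine was higher than in control for 12 and lower for 0, against 12.8% and 1.58% of all genes. In the mean difference over the 4 times, HINFP, UPF2 and TUT7 had the largest statistics. HINFP, a transcription factor of histone H4 genes, had 1.50 ± 0.09 (SE, limma adjusted p = 4.66e-09). UPF2, a partner of UPF1, had 1.02 ± 0.07 (adjusted p = 5.67e-09), and TUT7, a terminal uridylyltransferase, 2.16 ± 0.16 (adjusted p = 1.71e-08). Over the 4 times SLBP itself was higher by 0.31 ± 0.10 (adjusted p = 0.0178) and UPF1 by 0.34 ± 0.14 (adjusted p = 0.0442). At 0 hr SLBP was not higher, at 2133.7 in emetine and 2252.6 in control. It then read 2468.4, 2399.6 and 2434.8 in emetine, against 2195.0, 1602.5 and 1666.0 in control. The mean difference of SLBP thus came from the times after DRB. Of 20 histone chaperones 6 were higher and 5 lower over the 4 times, with a median of 0.03. These shares were near that of all genes for higher calls (28.4%) and under it for lower calls (35.4%). HJURP, the CENP-A chaperone, had a mean difference of 3.25 ± 0.38 and UBN1, of the HIRA complex, 1.04 ± 0.08. IPO4, which imports H3 and H4, had -0.64 ± 0.07. Between 0 and 4.5 hr HJURP went from 803.4 to 65.7 in control and from 2164.8 to 1906.5 in emetine. Its difference was thus smaller at DRB addition than over the 4 times. Of 26 S phase and G1/S genes 8 were higher and 8 lower over the 4 times, with a median of -0.02. Those shares were again near or under the 28.4% and 35.4% of all genes. Of the 3 with the largest statistics, the cell cycle inhibitors CDKN1B (3.80 ± 0.48) and CDKN1A (1.80 ± 0.18) were higher over the 4 times. RRM2, a subunit of ribonucleotide reductase, was lower (-0.46 ± 0.05, adjusted p = 1.62e-06). The fitted levels at DRB addition were smaller for CDKN1B (2.73 ± 0.42) and CDKN1A (1.09 ± 0.15). CDKN1A had a higher slope than in control, by 0.32 ± 0.05 log2 per hr (limma adjusted p = 0.00127). That of CDKN1B, 0.47 ± 0.15, did not pass (adjusted p = 0.0527).

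Across the 20 arrays the 7 genes did not share 1 profile. Pearson's r with the mean of the 7 centred log2 profiles was 0.877 for H2BC9, 0.863 for H2BC12, 0.813 for H3C2, 0.704 for H2BC5, 0.621 for H2AC6, 0.599 for H1-2 and 0.107 for H2BC21, each of them part of that mean. Among genes that encode no histone, the profiles most like the mean were those of EPB41L5 (r = 0.962), GPR75 (0.950), STK3 (0.942), UBE2H (0.939) and RAB3IP (0.937). These values describe 20 arrays that share conditions and DRB times. In emetine the 5 genes were higher by log2 differences from 0.73 for EPB41L5 to 1.11 for GPR75, and in shRent1 from 0.28 for EPB41L5 to 0.49 for GPR75. They were picked on the same arrays for likeness to a mean that is itself higher in emetine and shRent1. These differences therefore follow from the choice and are no separate result. The mean also includes H3C2, which passed the filter only through its emetine arrays.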

How the data were processed

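Total RNA was amplified, labelled with a 3' kit and hybridized to Affymetrix arrays, per the labels' protocols. In the deposited table there is 1 linear intensity for each of 54675 probe sets on 20 arrays, made by the authors with RMA, per the submitters' processing notes. RMA scales arrays to each other, so a change shared by most transcripts is removed. The number of arrays limits the precision, and no detection call was used.

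Intensities were transformed to log2. Of the probe sets, 41097 carried 1 gene symbol, 1801 several and 11777 none; only the first were named, and symbols were updated through a RefSeq gene table. The probe set with the highest mean stood for its gene, and 14478 genes with a mean above the 40th percentile (log2 4.70) were tested. Models were fitted to all 20 arrays with limma 3.58.1 (lmFit and eBayes, two-sided) in R 4.3.3. The mean difference used time as a factor and condition (8 coefficients, 12 residual degrees of freedom). Level and slope differences added a linear term per condition (12 coefficients, 8 degrees of freedom), and slopes within conditions used a line for each (10 and 10). P-values were adjusted by Benjamini-Hochberg over all genes tested, at 0.05. Simulated data of 14478 genes had 100 genes changed in emetine at each size, far fewer than were called in the real data. A mean difference of 0.5 was recovered for 69 of 100 genes, and of 1 for 96. A level difference of 0.5 was recovered for 9 and of 1 for 66, and a slope difference of 0.2 for 22 and of 0.4 for 77. With so few genes changed, these rates do not give the power of the tests on the real data.

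The 7 genes and the lists were chosen with earlier results of these data known. Named genes are the 7, the 3 genes of each list with the largest statistic in emetine, SLBP and UPF1, and the 5 most like profiles. The alternatives were other scalings, signal filters, probe set choices, moderation and time terms, and each array left out in turn. Probe sets with several symbols, 3 of which include H3C2, were not used.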

Additional observations from a re-analysis of the deposited data

Results flagged for a closer look

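In 40 groups of 4 arrays examined (8 probe sets in 5 conditions), 2 held an array far from the other 3 by Dixon's criterion, which chance flags in about 1 in 20 groups. For H2AC6 in emetine, the array at 0 hr stood above the others by 0.943 of the group's log2 range. For H2BC9 in tunicamycin, the array at 4.5 hr stood above the others by 0.890 of the range. The arrays of a group are 4 DRB times, not repeats of 1 time. H3C2 differed from control increasingly with DRB time in emetine, with a slope difference of 0.35 log2 per hr in the test of that difference, and this call was lost without either array at 0 hr or 4.5 hr.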

How the results depend on the processing

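Counts are of the 7 genes past the test. Without probe sets that may cross-hybridize, only H2BC12 and H1-2 could be tested: 2 were higher in emetine over all times, 2 at DRB addition, 2 against tunicamycin, 2 against hypoxia and 1 against shRent1. Then 1 was higher in shRent1 by either measure and 0 in tunicamycin, 0 had a higher slope in emetine than in control, and 1 rose in each of emetine, tunicamycin, hypoxia and shRent1. With the filter at the 60th percentile, 0 had a higher and 2 a lower slope in emetine, 1 was higher in emetine than in shRent1 and 1 rose in emetine. With quantile normalization 2 had a lower slope in emetine and 1 rose there, and with trended robust moderation 1 had a lower slope. With arrays centred on ribosomal protein genes 1 rose in emetine and 1 in tunicamycin, and with the median of a gene's probe sets 1 rose in tunicamycin. The 1 fall in tunicamycin was 0 under quantile normalization, the stricter filter, no filter, the median, no cross-hybridizing probe sets or every probe set tested. The cause was not tested.

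With 1 array left out, the counts of higher genes ran from 5 to 6 in emetine over all times, 1 to 6 at DRB addition, 3 to 3 and 0 to 3 in shRent1, 1 to 1 and 0 to 2 in tunicamycin, 5 to 6 against hypoxia, 5 to 6 against tunicamycin and 2 to 2 against shRent1. For lower genes they ran from 0 to 1 against shRent1, in tunicamycin over all times, and for slopes in emetine and in tunicamycin, and higher slopes in emetine from 0 to 1. Rising genes ran from 0 to 2 in emetine, 1 to 2 in tunicamycin (0 to 1 falling), 0 to 3 in hypoxia, 0 to 2 in shRent1 and 1 to 3 in control. Without the control array at 0 hr, H2BC21 in emetine turned to -0.10 at DRB addition (adjusted p = 0.897) and to -0.00 over all times (0.985), and with single arrays left out reached 0.55 and 0.24. Uncalled emetine slopes also turned sign when an array at 0 hr was left out: without the emetine one H1-2 had -0.00, H2AC6 0.06 and H2BC9 0.03, and without the control one H2BC9 had 0.03 and H2BC21 0.04. With single arrays left out the slopes of these genes otherwise reached 0.08 for H1-2, -0.25 for H2AC6, -0.10 for H2BC9 and -0.16 for H2BC21.

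The share of all genes called higher in shRent1 over all times was 17.7% against 13.7% lower, and 15% against 18.5% with arrays centred on ribosomal protein genes. Shares of all genes that rose and fell after DRB moved both ways with the scaling. In tunicamycin they were 11% and 11.4%, then 3.72% and 14.3% with that centring and 15.3% and 10.7% with quantile normalization. In hypoxia they were 15.3% and 14.2%, then 8.9% and 17.2%, and 19% and 14.3%. In shRent1 they were 11% and 16.5%, then 5.19% and 19.3%, and 20.8% and 14%. In control they were 14.2% and 17.5%, then 7.65% and 19.4%, and 23.5% and 15.9%. At DRB addition 9.68% were higher and 3.99% lower in shRent1, then 7.82% and 5.1%, and 6.99% and 6.52%. Slopes in emetine were higher than in control for 12.8% and lower for 1.58%, and 11.4% and 3.58% with quantile normalization. No paired analysis was possible because the labels carry no replicate numbers; arrays are matched by DRB time, which is a term of the mean, level and slope models.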
